A study of Mus musculus with 1 sample.

Results

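The subject here is 9 genes used as markers of outer radial glia (oRG), which are Hopx, Tnc, Ptprz1, Fam107a, Lifr, Il6st, Gng5, Sfrp1 and Moxd1. They were taken by symbol as 9 of the 51912 genes in a table of unique molecular identifiers (UMIs, 1 per captured RNA molecule) from single cells. The cells came from the cerebral cortex of WT mice (genotype wildtype, strain C57BL/6) at P0, the day of birth, and carried no transgene or treatment by the labels. The study asked how human SERPINA3, a secreted protease inhibitor, acts on cortical progenitors and folding. It stained HOPX protein in embryonic cortex as a marker of oRG, beside other progenitor markers and division angles. A single library of 11062 cells was used, with 90346034 UMIs and a median of 7196.5 UMIs and 3037 genes per cell. The knock-in cells of the study were not analysed here. With 1 library there is no replicate, so no test was made, and every interval is a 95% interval that covers counting error only. The design text speaks of triplicates, and whether this library pools them or came from 1 animal is not given in the sources used here. The tissue is labelled cerebral cortex, but the title of the sample says telencephalic, so other parts of the telencephalon may be included.

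Radial glia line the ventricle, divide and give rise to cortical neurons and later to glia. In gyrencephalic species a second population, the oRG, sits in the outer subventricular zone without a ventricular contact, and it is rare in the mouse. The marker genes of oRG were drawn largely from fetal human cortex. They include a homeodomain protein without DNA-binding activity of its own (Hopx), the matrix protein tenascin C (Tnc) and a receptor phosphatase of which tenascin C and pleiotrophin are ligands (Ptprz1), a protein tied to actin and stress (Fam107a), both chains of the LIF receptor (Lifr and Il6st, the latter encoding gp130), a G protein gamma subunit (Gng5), a secreted Wnt antagonist (Sfrp1) and a monooxygenase-like protein (Moxd1). By birth, radial glia are turning into astrocytes, which share many of their genes.

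Cells were sorted into gates by how many markers outside the 9 genes they held. A cell entered the radial glia gate with at least 5 of 10 markers (Aldoc, Slc1a3, Mfge8, Sox9, Fabp7, Aldh1l1, Gja1, Mlc1, Ddah1 and Ednrb), and it was also called dividing with at least 4 of 12 mitotic markers such as Top2a and Mki67. The radial glia gate held 454 cells, of which 93 were dividing and 361 were not. The oligodendrocyte precursor gate held 125 cells, and 107 dividing cells met no glial gate. These 107, called other dividing cells below, fell short of the glial gates but were not free of glial markers. Among them 36 were listed with inhibitory, 27 with excitatory and 24 with newborn excitatory markers, so they are a mixed group. Newborn excitatory cells numbered 286, excitatory neurons 6756 and inhibitory neurons 491. Another 300 cells met several gates, 48.3% of them called doublets, and 2437 cells of low depth (median 825 UMIs without mitochondrial genes) met none. Both were left out of the comparisons. Only 35 cells of the radial glia gate sat at its limit, and 26 cells without another gate were 1 marker below it.

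Genes kept out of the gate bore on its name. Vim, Nes, Pax6, Sox2, Hes5, Slc1a2, Aqp4, Gfap and S100b summed to 4191 CPM (UMIs per 1000000 UMIs without mitochondrial genes) in the radial glia gate and to 48.9 CPM in excitatory neurons. Pax6 was at 307 CPM and Nes at 280 CPM, but the astrocyte gene Slc1a2 was at 519 CPM and Aqp4 at 70.2 CPM. S100b was at 0 in the cells that were not dividing, as were Agt and Gjb6. Radial glia and young astrocytes may therefore share the gate, or single cells may hold genes of both, which pooled levels do not tell. Dissociated cells keep no position, so ventricular and outer cells cannot be told apart. The 8 excitatory neuron markers summed to 96.1 CPM in the radial glia gate against 2360 CPM in the neurons. The gates helped to set that low sum, since 83 cells with radial glia markers were set aside for their excitatory markers, so it is no measure of RNA from other cells. Markers of oligodendrocyte precursors (Olig1 and Olig2 among them) summed to 322 CPM in the radial glia gate, of inhibitory neurons to 30.6 and of Cajal-Retzius cells to 10.0. Those of mural cells summed to 150 CPM (Pdgfrb at 85.8 and Notch3 at 56.5, Vtn and Kcnj8 at 0). The sums were 43.7 for ependymal or choroid plexus cells, 21.7 for fibroblasts, 4.74 for red blood cells, 3.06 for endothelial cells and 1.95 CPM for microglia. The oligodendrocyte precursor gate held the 10 radial glia markers at 5334 CPM, beside 5033 CPM of its own markers. Other dividing cells held the radial glia markers at 1406 CPM and the inhibitory neuron markers at 890 CPM.

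Promoter windows are shown for 4 of the genes, because they set the 3 genes most restricted to radial glia (Hopx, Tnc and Fam107a) against Gng5, which was found in all the neural and vascular gates. They were read from RefSeq on GRCm38.p6, run 5′ to 3′ on the strand of the gene and span 250 bases before to 50 after a start. RefSeq gave windows for 8 of the 9 genes, 13 in all. Both Hopx starts are shown. The first lies at chr5:77095218-77095517 and the second at chr5:77115074-77115373, on the minus strand. The Tnc window shown lies at chr4:64046887-64047186 and the Fam107a window shown at chr14:8309728-8310027, both on the minus strand. The Gng5 window lies at chr3:146499586-146499885 on the plus strand. Other windows of Tnc and Fam107a are not shown. Capitals mark the letters ACAAAG, a core bound by SOX factors, in Fam107a and TTCNNNGAA, the pattern bound by STAT factors, in Gng5.
Hopx, first start: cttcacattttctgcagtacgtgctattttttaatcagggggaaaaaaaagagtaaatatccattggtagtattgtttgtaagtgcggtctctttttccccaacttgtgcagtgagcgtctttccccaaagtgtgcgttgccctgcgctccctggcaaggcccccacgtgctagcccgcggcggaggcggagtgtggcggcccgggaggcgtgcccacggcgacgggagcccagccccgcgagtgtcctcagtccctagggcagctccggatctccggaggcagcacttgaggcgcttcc
Hopx, second start: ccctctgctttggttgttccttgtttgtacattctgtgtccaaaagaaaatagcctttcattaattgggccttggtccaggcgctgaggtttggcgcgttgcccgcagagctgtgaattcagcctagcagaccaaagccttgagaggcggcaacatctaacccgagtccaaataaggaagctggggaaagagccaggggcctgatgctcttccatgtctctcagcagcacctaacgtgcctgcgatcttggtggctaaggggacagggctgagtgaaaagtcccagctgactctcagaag
Tnc: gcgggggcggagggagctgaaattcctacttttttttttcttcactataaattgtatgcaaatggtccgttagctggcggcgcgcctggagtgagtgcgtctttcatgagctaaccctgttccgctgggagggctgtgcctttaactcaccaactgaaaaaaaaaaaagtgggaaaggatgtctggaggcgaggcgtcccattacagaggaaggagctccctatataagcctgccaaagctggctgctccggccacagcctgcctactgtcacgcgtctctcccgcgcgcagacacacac
Fam107a: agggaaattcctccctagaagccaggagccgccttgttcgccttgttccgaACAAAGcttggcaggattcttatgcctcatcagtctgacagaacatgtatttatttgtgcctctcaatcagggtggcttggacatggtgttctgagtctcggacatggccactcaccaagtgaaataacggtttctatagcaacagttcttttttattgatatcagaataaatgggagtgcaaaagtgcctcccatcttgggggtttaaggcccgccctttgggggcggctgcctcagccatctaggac
Gng5: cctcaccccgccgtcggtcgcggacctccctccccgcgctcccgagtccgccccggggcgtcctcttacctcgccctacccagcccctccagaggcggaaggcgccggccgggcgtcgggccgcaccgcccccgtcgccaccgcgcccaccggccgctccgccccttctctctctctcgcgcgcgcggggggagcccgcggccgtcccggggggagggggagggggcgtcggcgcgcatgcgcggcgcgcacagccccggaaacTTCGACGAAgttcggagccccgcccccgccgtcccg

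The windows differed in base composition. The Gng5 window was 80.7% G or C and held 52 CpG dinucleotides, against medians of 52.7% and 7 over 32851 RefSeq windows of the same length. The windows of Fam107a (49% and 7), Tnc (54% and 16) and Hopx (59% and 21, then 53% and 8) lay nearer to those medians. Of the receptor genes, the Il6st window was 68.3% G or C with 33 CpG and the first Lifr window 81.3% with 53, while the second Lifr window was 53.3% with 4. Starts of 1 gene could thus differ. Another Fam107a window was 64% G or C with 15 CpG, and another Tnc window was 47.3% with 10. TTCNNNGAA, read on both strands, occurred in 2 of the 13 windows (Gng5 and Moxd1) and in 8.3% of all windows. ACAAAG occurred in 2 overlapping windows of Fam107a and in 18.7% of all, TTGGCA (an NFI half-site) in 3 and 14.1%, TGGGAA (RBPJ) in 3 and 25.6%, and TAATTA (homeodomain) in 0 and 5.29%. These matches are letters only, and the counts from RNA ends do not tell which start was used.

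Hopx, the gene whose protein the study stained in embryos, was mostly found in radial glia in these RNA counts from birth. It stood at 153 CPM in the radial glia gate (551 UMIs, interval 141 to 167), 17.5 CPM in oligodendrocyte precursors, 3.56 CPM in inhibitory neurons, 2.11 CPM in other dividing cells, 1.86 CPM in excitatory neurons and 1.61 CPM in newborn excitatory cells. The level was 82.6-fold higher in radial glia than in excitatory neurons (67.9 to 101) and 8.76-fold higher than in oligodendrocyte precursors (5.26 to 15.8), the latter being 5.40 when every gate needed 1 marker more. The 4 lowest levels had overlapping intervals and cannot be ordered. Outside the neural cells, Hopx reached 59.6 CPM in 14 endothelial cells, from 10 UMIs.

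Detection was compared after each cell was thinned at random to 2000 UMIs, so that depth did not set it. A Hopx UMI was then found in 89 of 431 radial glia (20.6%, 16.9 to 24.8), in 4 of 112 oligodendrocyte precursors (3.57%) and in 27 of 6379 excitatory neurons (0.423%). Without thinning the shares were 37.2% and 1.63% in radial glia and excitatory neurons, whose median depths were 7609 and 8855 UMIs. The highest cell held 18 Hopx UMIs. Free RNA was not separated from the RNA of a cell, and its part in the low share in neurons was not tested.

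Tnc was the most restricted of the 9 genes by its ratio to excitatory neurons and by its share of UMIs in the radial glia gate. It stood at 499 CPM in radial glia (476 to 522), 25.3 CPM in other dividing cells, 9.35 CPM in oligodendrocyte precursors, 5.54 CPM in inhibitory neurons, 1.61 CPM in newborn excitatory cells and 1.16 CPM in excitatory neurons. The ratio of radial glia to excitatory neurons was 430 (343 to 547), or 265 from the mean CPM of single cells, and 77.8% of all Tnc UMIs lay in the radial glia gate, which held 4.10% of the cells. Against oligodendrocyte precursors the ratio was 53.3 (27.0 to 124). The level in other dividing cells came from 7 of 107 cells, 1 of which held 11 of the 24 UMIs. The ratio to the precursors rested on 8 UMIs in 5 of them and was 7.51 when every gate needed 1 marker fewer. Thinned cells held a Tnc UMI in 47.8% of radial glia, 1.79% of oligodendrocyte precursors and 0.329% of excitatory neurons.

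Ptprz1 was high in both glial lineages and was present in neurons as well. It stood at 4802 CPM in radial glia (4731 to 4875), 2372 CPM in oligodendrocyte precursors, 749 CPM in other dividing cells, 296 CPM in excitatory neurons, 253 CPM in newborn excitatory cells and 211 CPM in inhibitory neurons. All neighbours in this order had separate intervals. The level in radial glia was 16.2-fold that in excitatory neurons (15.9 to 16.5) but 2.02-fold that in oligodendrocyte precursors (1.93 to 2.12). Thinned detection was 97.0% in radial glia, 93.8% in oligodendrocyte precursors and 40.9% in excitatory neurons. Excitatory neurons, the largest gate, held 42.0% of all Ptprz1 UMIs and radial glia 36.3%.

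Fam107a was rare but sharply placed. Of its 123 UMIs, 85 lay in radial glia (23.7 CPM, 18.9 to 29.3), 10 in excitatory neurons (0.149 CPM) and 0 in oligodendrocyte precursors. The level was 159-fold higher in radial glia than in excitatory neurons (82.6 to 344) and at least 6.75-fold higher than in oligodendrocyte precursors, taking 3 counts as the floor in that gate. Thinned detection was 4.18% in radial glia and 0 of 112 oligodendrocyte precursors, which by the floor of 3 counts allows a share of up to 2.68%.

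The LIF receptor chains differed in some gates and were both raised over excitatory neurons in others. Lifr stood at 27.3 CPM in radial glia (22.2 to 33.3), 37.4 CPM in oligodendrocyte precursors (25.6 to 52.8) and 21.7 CPM in excitatory neurons (20.6 to 22.8), with a ratio of 1.26 between radial glia and excitatory neurons (1.02 to 1.55) and of 0.73 between radial glia and oligodendrocyte precursors (0.485 to 1.12). Excitatory neurons held 75.9% of its UMIs, close to the 77.5% of the UMIs of all genes that lay in that gate. The highest level was in 32 Cajal-Retzius cells, the early-born neurons of the marginal zone that express Reln, at 154 CPM (123 to 191) and 7.12-fold that of excitatory neurons (5.65 to 8.86). In 20 mural cells it was 87.8 CPM on 11 UMIs, with an interval (43.8 to 157) that overlapped that of Cajal-Retzius cells. Il6st, the shared signalling chain, stood at 39.3 CPM in radial glia (33.1 to 46.3), 15.2 CPM in oligodendrocyte precursors and 5.74 CPM in excitatory neurons, a ratio of 6.85 to the neurons (5.61 to 8.33). It was at 53.6 CPM in endothelial and 55.9 CPM in mural cells, and at 29.0 CPM in Cajal-Retzius cells (16.6 to 47.2), with intervals that overlapped that of radial glia. UMIs of both chains were thus found in radial glia, though thinned detection was 4.41% for Lifr and 6.5% for Il6st. The Lifr level there was near the 22.2 CPM of the whole library, and detection of both chains in the same cell is not given here.

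Gng5 marked no single cell type. It stood at 663 CPM in radial glia (637 to 690), 380 CPM in other dividing cells, 301 CPM in oligodendrocyte precursors, 190 CPM in newborn excitatory cells, 77.6 CPM in inhibitory and 77.1 CPM in excitatory neurons. The last 2 did not differ beyond their intervals. Endothelial cells were higher than radial glia, at 1001 CPM and a ratio of 1.51 (1.28 to 1.76), and 18 microglia reached 843 CPM. Among neural cells Gng5 was 8.61-fold higher in radial glia than in excitatory neurons (8.19 to 9.03), and newborn excitatory cells were 2.47-fold higher than the neurons (2.24 to 2.71).

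Sfrp1 was found from radial glia through to neurons of the excitatory lineage. It stood at 509 CPM in radial glia (486 to 533), 187 CPM in newborn excitatory cells (171 to 205), 134 CPM in other dividing cells, 91.4 CPM in excitatory neurons, 64.3 CPM in oligodendrocyte precursors and 30.5 CPM in inhibitory neurons. It was the only one of the 8 genes with at least 100 UMIs whose interval in oligodendrocyte precursors lay below that of excitatory neurons (ratio 0.703, 0.529 to 0.916). The ratio of radial glia to excitatory neurons was 5.57 (5.29 to 5.87), and thinned detection was 56.6%, 9.82% and 16.9% in radial glia, oligodendrocyte precursors and excitatory neurons. Moxd1 had 28 UMIs in the library, 9 of them in radial glia, 8 in excitatory neurons and 4 in oligodendrocyte precursors, at most 1 per cell in these gates. Its level was 2.51 CPM in radial glia (1.15 to 4.76), 4.67 CPM in oligodendrocyte precursors (1.27 to 11.97) and 0.119 CPM in excitatory neurons (0.051 to 0.234). It was 21.1-fold higher in radial glia (7.22 to 62.8) and 39.3-fold higher in oligodendrocyte precursors (8.66 to 147) than in excitatory neurons, while the interval of the ratio of both glial gates (0.536, 0.15 to 2.38) included 1. It was found in 9 of 454 radial glia without thinning (1.98%, 0.91 to 3.73). After thinning it was found in 0 of 431, which by the floor of 3 counts allows a share of up to 0.696% at that depth.

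**Figure D1:**
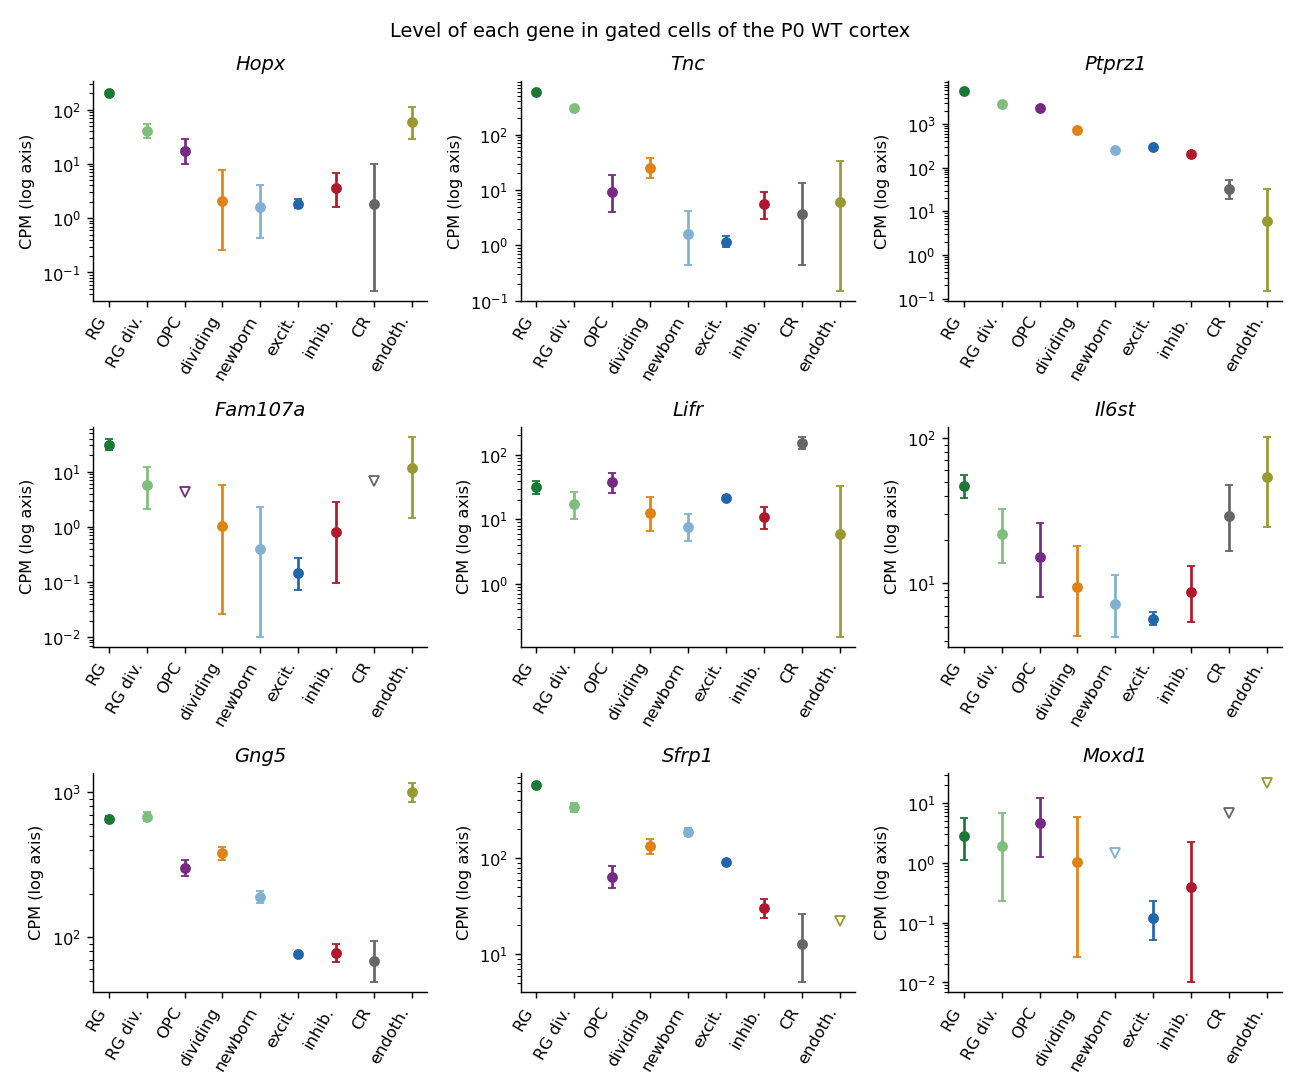
Level in CPM (log axis, its range set for each gene) in 9 gates, where RG is radial glia not dividing, RG div. is dividing radial glia, OPC is oligodendrocyte precursors, dividing is dividing cells without a glial gate and CR is Cajal-Retzius cells. Points are pooled levels, bars 95% counting intervals and open triangles the upper limit where a gate held 0 UMIs; Tnc falls from 583 CPM in radial glia to 1.16 CPM in excitatory neurons, while Lifr is highest in Cajal-Retzius cells at 154 CPM.

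Of the 8 genes with at least 100 UMIs, 7 were at least 2-fold higher in radial glia than in excitatory neurons, all but Lifr, and 0 were at least 2-fold lower. Over all 14840 genes with as many UMIs, 21.6% were that much higher and 20.1% that much lower. The median ratio of the 8 was 12.4, against 1.01 over all genes. Against oligodendrocyte precursors the same 7 genes were at least 2-fold higher and 0 lower. Of all genes 10.3% were higher and 22.2% lower, with medians of 4.67 for the 8 and 0.896 for all genes. The floor of 3 counts was 0.836 CPM in radial glia and 3.51 CPM in oligodendrocyte precursors. A gene with at most 3 UMIs in both was thus called lower in radial glia. The shares and the median over all genes therefore depend in part on gate size here, and the 22.2% can include genes without a difference. The calls of Ptprz1 and Gng5 in that comparison were near the limit. With 1 marker fewer in every gate the ratios were 1.76 and 1.83 and the count was 5. Against other dividing cells 7 genes were at least 2-fold higher, all but Gng5 (1.74, 1.56 to 1.95), where 12.5% of all genes were. The floor in other dividing cells was 3.16 CPM, so the 12.5% depends in part on gate size as well.

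Within the radial glia gate, 7 of the 8 genes with at least 100 UMIs had a lower level in dividing cells, all but Gng5, and Moxd1 had too few UMIs to tell (0.683, 0.069 to 3.59). The share of all genes that were lower by any fold is not given here, so this count has no background. Median depth was 7168 UMIs per cell in cells not dividing and 11405 in dividing cells. A lower level is thus a lower share of the UMIs, not always fewer UMIs per cell. Hopx was at 201 CPM in the 361 cells that were not dividing (184 to 219) and at 40.6 CPM in the 93 that were (29.4 to 54.7), 4.94-fold lower (3.62 to 6.91). Fam107a went from 31.2 to 5.67 CPM, 5.51-fold lower on 6 UMIs (2.42 to 15.5), and Il6st from 46.6 to 21.7 CPM, 2.15-fold lower (1.36 to 3.52). Ptprz1 was 1.97-fold lower (5620 and 2848 CPM), Tnc 1.96-fold (583 and 298 CPM), Lifr 1.86-fold (31.6 and 17.0 CPM) and Sfrp1 1.71-fold (580 and 340 CPM), each with an interval above 1. Gng5 was at 657 and 677 CPM, with a ratio of dividing to other cells of 1.03 (0.943 to 1.12). Thus 0 of the 8 genes were at least 2-fold higher in dividing cells, where 17.2% of all genes were, and 3 were at least 2-fold lower (Hopx, Fam107a and Il6st), where 7.84% were. The floor of 3 counts was 2.83 CPM in dividing and 1.19 CPM in other radial glia. A gene with at most 3 UMIs in both was thus called higher in dividing cells. The shares over all genes therefore depend in part on gate size, and the 17.2% can include genes without a difference. Calls near that limit changed with the gates. With 1 marker more in every gate the ratio of dividing to other cells was 0.467 for Tnc and 0.496 for Ptprz1, past the limit, and with 1 marker fewer it was 0.573 for Il6st, short of it. The median ratio was 0.509 for the 8 genes and 1.03 for all. Without thinning, Lifr was detected in 16.9% of cells not dividing and 17.2% of dividing cells, and Il6st in 26.6% and 24.7%. The shares were 41.0% and 22.6% for Hopx and 77.8% and 58.1% for Tnc.

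Other glial genes moved with this difference. The 10 markers of the gate summed to 23772 CPM in cells not dividing and to 11474 CPM in dividing cells, and 6 astrocyte genes summed to 1211 and 522 CPM. A list of 6 radial glia genes (Pax6, Nes, Emx2, Hes5, Hes1 and Vim) summed to 3528 and 2719 CPM, with Vim at 1722 and 1168 CPM, Hes5 at 905 and 744 CPM, Pax6 at 322 and 269 CPM and Nes at 282 and 275 CPM. Outside that list Sox2 was at 564 and 562 CPM and Olig2 at 109 and 224 CPM. The part of these in the result was not tested. Dividing radial glia were still far from other dividing cells, 19.3-fold higher in Hopx (5.02 to 164, with 2 UMIs in the latter) and 11.8-fold higher in Tnc (7.77 to 18.7, with 11 of the 24 UMIs of the latter in 1 cell). Seen by cell, 9 of 89 thinned radial glia with Hopx were dividing (10.1%, 4.73 to 18.3), against 84 of 342 without it (24.6%, 20.1 to 29.5). The corresponding shares were 16.0% and 26.7% for Tnc, and 16.8% and 27.8% for Sfrp1.

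**Figure D2:**
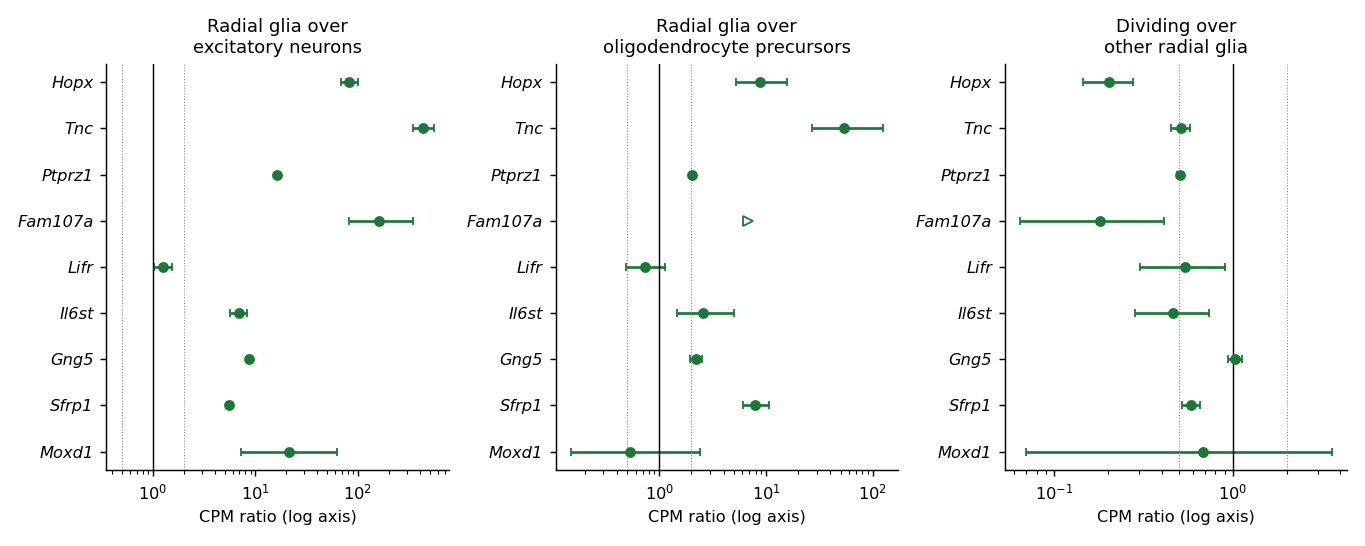
Ratio of CPM (log axis) for each gene, with 95% counting intervals, in radial glia over excitatory neurons, in radial glia over oligodendrocyte precursors and in dividing over other radial glia. The solid line is a ratio of 1, dotted lines are 2-fold, and the open triangle is a lower bound against 0 UMIs; Lifr stays near 1 in the left panel (1.26) and Hopx and Fam107a are lowest in the right panel, 4.94-fold and 5.51-fold lower in dividing cells.

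Single radial glia cells held several of the genes. How many a cell held depends on the share of each gene in its gate, and no count for independent detection is set beside these values. After thinning, a radial glia cell held a median of 3 of the 9 genes and at most 7, and 156 of 431 held 4 or more (36.2%, 31.7 to 40.9). Among oligodendrocyte precursors 0 of 112 did, among other dividing cells 0 of 91, among newborn excitatory cells 0 of 283, among excitatory neurons 2 of 6379 and among inhibitory neurons 1 of 403. Oligodendrocyte precursors mostly held 1 gene (50.9%) or 2 (42.0%), as Ptprz1 alone was in 93.8% of them. Hopx, Tnc and Ptprz1 were detected together in 62 of 431 radial glia (14.4%, 11.2 to 18.1), in 0 of 112 oligodendrocyte precursors and in 1 excitatory neuron.

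**Figure D3:**
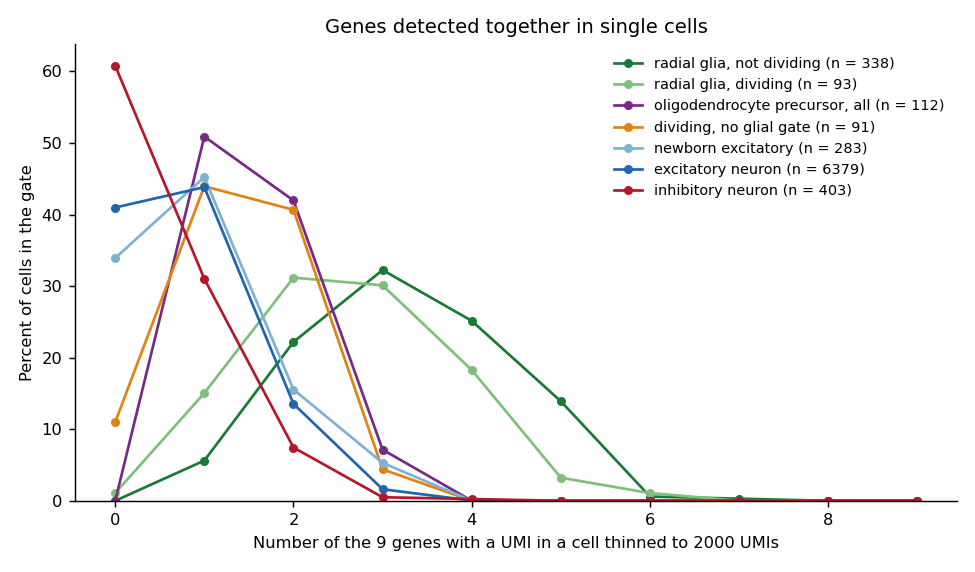
Percent of cells in each gate (vertical axis) by the number of the 9 genes with a UMI after thinning to 2000 UMIs (horizontal axis). Radial glia peak at 2 or 3 genes, with 36.2% at 4 or more, while the other gates peak at 0 or 1 gene.

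Over the whole library, pairing 2 genes pointed to radial glia more closely than 1 gene did. Of 138 thinned cells with Hopx, 64.5% were in the radial glia gate and 19.6% were excitatory neurons. Of 265 with Tnc, 77.7% were in the gate. Of 68 with both, 62 (91.2%) were in the gate, 3 met several gates, 2 met none and 1 was an excitatory neuron.

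Within radial glia, Tnc and Sfrp1 went with Hopx. Tnc was detected in 62 of 89 thinned cells with Hopx (69.7%, 59.0 to 79.0) and in 144 of 342 without it (42.1%, 36.8 to 47.5), a difference of 27.6 percentage points (16.1 to 37.5). Other draws of 2000 UMIs gave 23.0 and 20.7 points, and a draw of 1000 UMIs gave 3.38 points. Sfrp1 was detected in 69.7% and 53.2%. Since a single random draw decides which UMIs stay, the expected shares over all draws were also computed. They were 71.9% and 47.9% for Tnc, a difference of 24.1 points, and 71.9% and 53.7% for Sfrp1. The expected shares with and without Hopx were 73.9% and 71.5% for Gng5, 7.88% and 7.77% for Il6st, 4.65% and 5.49% for Lifr and 6.06% and 4.62% for Fam107a. Ptprz1, at 99.0% and 96.9%, was in nearly all cells, so that detection could show little difference. The gap of Gng5 (79.8% and 70.8%) and that of Il6st (3.37% and 7.31%) in the draw were thus not found in the expected shares.

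**Figure D4:**
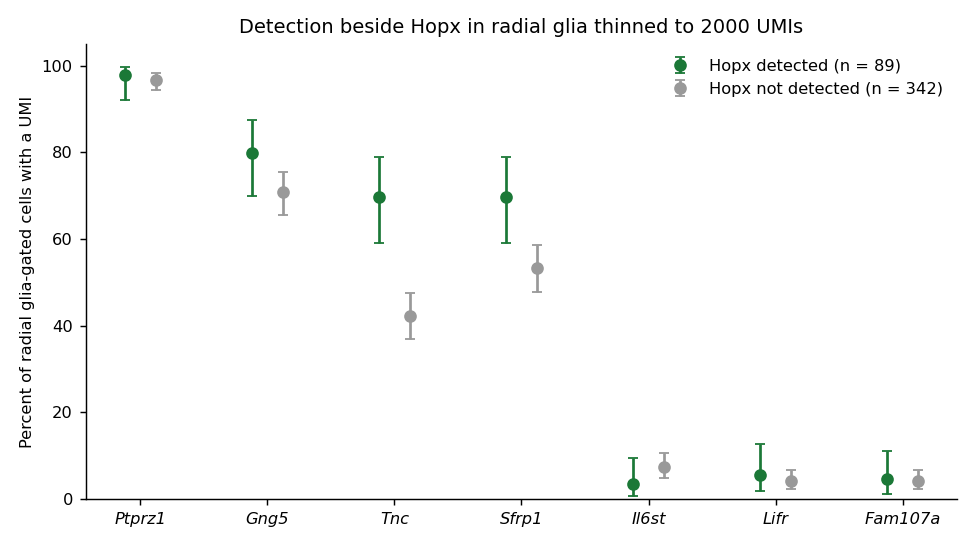
Percent of thinned radial glia with a UMI of each gene (vertical axis) among 89 cells with Hopx (green) and 342 without (grey) in 1 random draw, with 95% binomial intervals. The intervals are apart for Tnc (69.7% and 42.1%) and for Sfrp1 (69.7% and 53.2%), and overlap for the other genes.

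The cells with Hopx were then compared with the cells without it in radial glia that were not dividing (80 and 258 cells, with medians of 7540 and 7249 UMIs per cell). Hopx status was taken from the thinned cells and levels from all UMIs. The 258 cells called without Hopx still held 124 Hopx UMIs, at 65.1 CPM against 643 CPM in the 80 cells. The folds thus compare cells with more and with less Hopx, and the second group is not free of it. With Hopx, Tnc was 1.61-fold higher (1.45 to 1.80; 824 and 510 CPM), Sfrp1 1.52-fold higher (783 and 516 CPM) and Ptprz1 1.35-fold higher (6995 and 5196 CPM). Gng5 (1.08, 0.962 to 1.21), Fam107a (0.94, 0.523 to 1.61), Lifr (0.676, 0.351 to 1.22) and Il6st (0.69, 0.409 to 1.11) had intervals that included 1. Several markers of the gate differed by similar folds, with Aldoc 1.62-fold (1.52 to 1.73), Ddah1 1.54-fold, Fabp7 1.46-fold, Sox9 1.29-fold, Slc1a3 1.25-fold and Aldh1l1 1.25-fold higher, while Mfge8 (0.954) and Mlc1 (1.03) were level and Ednrb was 1.53-fold lower. Among other genes of radial glia, Pax6 was 1.36-fold (1.17 to 1.59) and Nes 1.32-fold higher (1.12 to 1.56) and Vim 1.08-fold higher (1.003 to 1.15). Sox2 (0.983, 0.867 to 1.11), Emx2 (1.24, 0.90 to 1.69) and Hes1 (0.861, 0.694 to 1.06) had intervals that included 1, and Hes5 was at 0.905 (0.818 to 0.9998). Gfap, the intermediate filament gene of astrocytes and a known target of gp130 signalling, was 2.63-fold higher (1.79 to 3.86). Other astrocyte genes did not move alike. Clu was 1.54-fold and Mt3 1.33-fold higher, Slc1a2 was 1.21-fold higher (1.08 to 1.36), Aqp4 (1.23, 0.906 to 1.66) and Slc4a4 (0.952, 0.797 to 1.13) had intervals that included 1, the GABA transporter gene Slc6a11 was 1.28-fold lower (1.02 to 1.61) and the gap junction gene Gja1 was 2.93-fold lower (1.61 to 5.84).

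The next 4 genes were chosen because their values were lower with Hopx, so they stand for themselves only. Egfr, the EGF receptor, was 5.48-fold lower with Hopx (35.1 and 193 CPM), and Olig1 and Olig2, factors of the oligodendrocyte lineage, were 6.04-fold and 4.73-fold lower. Foxj1, which drives motile cilia in ependymal cells, was at 8.37 and 43.6 CPM, 5.21-fold lower (2.14 to 16.5). Pdgfra and Sox10, which define oligodendrocyte precursors, were at 0 UMIs in both groups. Both are markers of the precursor gate, of which radial glia could hold at most 2, so the gates helped to set this.

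The radial glia gate was also split by astrocyte genes (Aqp4, Slc1a2, Agt, Slc6a11, Gjb6 and Slc4a4). Of the cells not dividing, 282 held at least 2 of these and 79 held 0 or 1, with medians of 7323 and 6030 UMIs per cell. The level of Hopx was 226 CPM in the former and 82.8 CPM in the latter, 2.73-fold higher with astrocyte genes (1.95 to 3.93). Tnc (2.58-fold), Ptprz1 (2.78-fold), Fam107a (2.61-fold), Il6st (1.89-fold) and Lifr (4.07-fold, on 4 UMIs in the smaller group) were likewise higher with astrocyte genes, each with an interval above 1. Gng5 (0.983, 0.866 to 1.12) and Sfrp1 (1.07, 0.929 to 1.23) had intervals that included 1. Of the radial glia genes, so did Pax6 (0.937, 0.784 to 1.12), Nes (1.18, 0.961 to 1.46) and Emx2 (1.24, 0.842 to 1.88), while Sox2 was 1.26-fold (1.09 to 1.47), Hes5 1.31-fold (1.16 to 1.47) and Hes1 1.49-fold higher (1.15 to 1.94) with astrocyte genes and Vim was 1.10-fold lower (1.02 to 1.19). Genes of other cell states differed across the split as well. In the 79 cells Foxj1 was 3.54-fold, Olig2 2.75-fold and Egfr 1.92-fold higher, and of the markers of the gate Fabp7 was 3.85-fold and Aldoc 3.13-fold lower. Their part in the result was not tested. The difference in depth acts on the split itself, since a shallow cell shows fewer astrocyte genes, and its part was not tested.

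Genes of the pathways around these markers were taken from lists of ligands, partners and relatives. Of 19 genes of gp130 signalling, 12 had at least 100 UMIs. Of these, 6 were at least 2-fold higher in radial glia than in excitatory neurons and 2 lower, with a median ratio of 2.04. Over all genes 21.6% were higher and 20.1% lower, which is the background for each list here. Gfap was 576-fold higher on 4 UMIs in the neurons (219 to 2149). Stat3, the transcription factor below gp130, was 26.1-fold higher (52.6 and 2.02 CPM) and Il11ra1, another receptor that pairs with gp130, 20.5-fold higher (35.4 and 1.72 CPM). In oligodendrocyte precursors Gfap was at 0, Stat3 at 99.3 and Il11ra1 at 3.51 CPM, so Stat3 was not particular to radial glia. The ligands Lif, Cntf, Il6 and Osm had from 1 to 4 UMIs each in the whole library.

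Of 19 ligands, partners and matrix genes of tenascin C and PTPRZ1, 16 had enough UMIs, 8 were higher and 3 lower, the latter near the share over all genes, with a median of 2.0. Bcan, the proteoglycan brevican, was 208-fold higher in radial glia than in excitatory neurons (392 and 1.89 CPM), Egfr 185-fold (187 and 1.01 CPM) and the integrin subunit Itgav 49.2-fold (58.5 and 1.19 CPM). In oligodendrocyte precursors Bcan was at 553, Egfr at 76.0 and Itgav at 70.1 CPM, so Bcan and Itgav were not particular to radial glia. Of 17 Wnt genes, 12 had enough UMIs, 7 were higher and 2 lower, the latter near the share over all genes, with a median of 2.5. Lef1, a nuclear effector of Wnt, was 37.5-fold higher at a low level (6.13 and 0.163 CPM), the ligand Wnt7a 12.5-fold higher and Axin2, a Wnt target, 9.41-fold higher. In oligodendrocyte precursors Lef1 was at 3.51, Wnt7a at 19.9 and Axin2 at 22.2 CPM, against 6.13, 25.3 and 65.2 CPM in radial glia. In inhibitory neurons Lef1 was at 0.791, Wnt7a at 30.9 and Axin2 at 11.9 CPM, so Wnt7a was not particular to radial glia.

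Of 10 other G protein gamma subunits, 7 had enough UMIs, 2 were higher, near the share over all genes, and 4 lower, with a median of 0.477. Gng11 was 57.3-fold and Gng12 28.7-fold higher in radial glia, whereas Gng2 was 6.73-fold lower (60.4 and 407 CPM). In oligodendrocyte precursors Gng11 was at 1.17, Gng12 at 268 and Gng2 at 103 CPM, against 15.3, 201 and 60.4 CPM in radial glia. Fam107b, the paralogue of Fam107a, was 2.12-fold lower in radial glia (17.0 and 36.0 CPM), opposite to Fam107a. Dbh, a relative of Moxd1 that makes noradrenaline, had 0 UMIs in the library. Of genes used for ventricular radial glia in human cortex, Palld was 19.4-fold and Tagln2 13.1-fold higher in radial glia than in excitatory neurons. Cryab was level (1.23, 0.956 to 1.56), Fbxo32 was 2.96-fold lower and Pdgfd had 11 UMIs. In oligodendrocyte precursors Palld was at 15.2 and Tagln2 at 87.6 CPM, against 58.5 and 45.1 CPM in radial glia. Beside Hopx, Tagln2 was 1.89-fold higher (1.25 to 2.83) whereas Cryab (0.753, 0.377 to 1.40), Palld (0.693, 0.431 to 1.08) and Fbxo32 (1.45, 0.395 to 4.52) had intervals that included 1 and Pdgfd had 0 and 2 UMIs with and without Hopx.

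Genes with the most similar pattern were found by Pearson correlation of log2(CPM + 1) over 13 gates, which share 1 library and so give a description only. They were Lrp4 (0.97), Hey1 (0.94) and Cyr61 (0.93) for Hopx, Acsbg1 (0.94), Kctd14 (0.92) and Pdpn (0.92) for Tnc, and AW047730 (0.98), Hectd2 (0.97) and Itgb8 (0.97) for Ptprz1. Lrp4 was at 52.1 CPM in radial glia and 0.208 CPM in excitatory neurons. Fam107a was most like Gsta4 (0.98), Gja1 (0.93) and Fgd6 (0.90), of which Gja1 is a marker of the gate itself. Il6st was most like Tacc1 (0.96), Rsu1 (0.96) and Dnajc3 (0.96), and Lifr like Stk39 (0.93), Fahd1 (0.93) and Sirt3 (0.92). Gng5 was most like Pon2 (0.93), Rhog (0.93) and Apoe (0.92), and Sfrp1 like Nr2f1 (0.94), Ehbp1 (0.92) and Mdk (0.91). Between the marker genes themselves the correlation ran from -0.25 for Il6st with Sfrp1 to 0.82 for Ptprz1 with Sfrp1. It was 0.79 for Fam107a with Hopx, 0.77 for Hopx with Tnc, 0.44 for Lifr with Il6st and 0.02 for Fam107a with Lifr, and Gng5 was below 0 with Lifr (-0.20), Sfrp1 (-0.20) and Ptprz1 (-0.05).

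Ptprz1, Sfrp1 and Lifr also varied among excitatory neurons. These were split by upper-layer genes (Cux1, Cux2, Inhba, Rorb, Lhx2 and Mdga1) and deep-layer genes (Bcl11b, Fezf2, Tle4, Foxp2, Sox5 and Crym), and this split was chosen after the levels were seen. In 3672 upper and 917 deep cells, Sfrp1 was at 116 and 26.5 CPM, 4.38-fold higher in upper cells (interval from 3.84). Lifr was at 21.0 and 8.84 CPM, 2.38-fold higher (1.89 to 3.03), and Ptprz1 at 346 and 184 CPM, 1.88-fold higher (1.78 to 1.97). Hopx, Tnc and Fam107a were at most 2.4 CPM in both. The other 2167 excitatory neurons met neither rule. Lifr was higher there than in upper cells, at 27.2 CPM (25.2 to 29.3), while Sfrp1 (82.8 CPM) and Ptprz1 (273 CPM) lay between the upper and deep levels.

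Igfbpl1, a gene of young neurons, split the upper cells further. In 2620 upper cells with at least 3 Igfbpl1 UMIs and 475 with 0, Ptprz1 was at 437 and 159 CPM, 2.75-fold higher with Igfbpl1 (2.56 to 2.96). The Ptprz1 level in upper cells without Igfbpl1 was below the 184 CPM of all deep cells (0.861, 0.79 to 0.937). In upper cells with 1 or 2 Igfbpl1 UMIs it was 170 CPM (0.923, 0.853 to 0.998). Deep cells, with Igfbpl1 at 354 CPM, were not split by it, so upper and deep cells were not compared at like Igfbpl1. Lifr went the other way, at 11.5 and 42.6 CPM, 3.69-fold higher without Igfbpl1 (3.06 to 4.45). Sfrp1 differed less, 1.27-fold higher with Igfbpl1 (1.15 to 1.40), and Gng5 was 1.17-fold higher without it (1.05 to 1.31). Cells without Igfbpl1 were deeper (median 11121 against 7570 UMIs), and Sox11, another gene of young neurons, was at 1724 and 3734 CPM in cells without and with Igfbpl1.

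**Figure D5:**
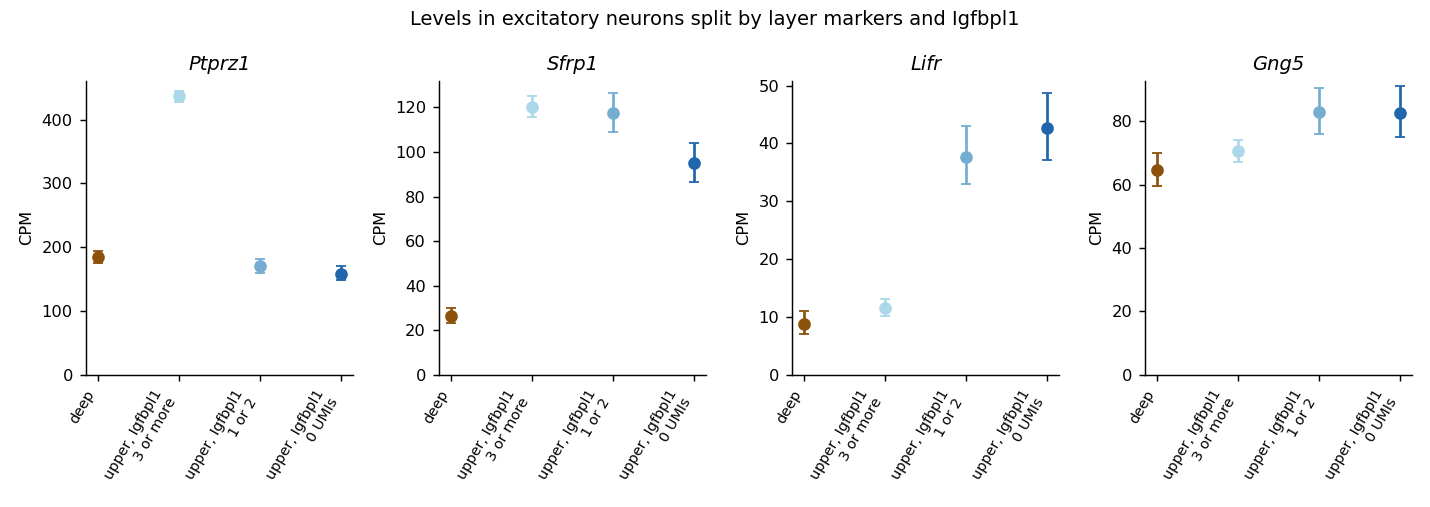
Level in CPM (axis from 0) of Ptprz1, Sfrp1, Lifr and Gng5 in excitatory neurons with deep-layer genes and in those with upper-layer genes at 3 levels of Igfbpl1 UMIs, without the 2167 neurons that met neither rule; bars are 95% counting intervals. Ptprz1 is highest with Igfbpl1 (437 CPM), Lifr is highest without it (42.6 CPM) and Sfrp1 is lowest in deep cells (26.5 CPM).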

How the data were processed

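Single cells of the P0 WT cortex were captured with the 10x Chromium 3′ v3.1 kit and sequenced on an Illumina instrument. The authors deposited raw UMI counts per gene symbol and cell, and a table of total counts and detected genes per cell, which matched the sums for all 11062 cells. The submitters' processing notes name mm9, STAR, Cell Ranger and Seurat without their roles. No multiplet or quality filter is stated for the deposited counts, and no cell had fewer than 500 UMIs. Genes are given by symbol only, so RefSeq promoters on GRCm38.p6 were matched by symbol.

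The 9 genes and the lists were chosen with earlier results of these data known, and the thresholds of the gates were set on marker counts after the table was read. A minimum of 200 genes removed 4 cells. Further gates were oligodendrocyte precursors (at least 4 of 7 markers, with at most 2 of these allowed in radial glia), newborn excitatory cells (at least 2 of 4), excitatory and inhibitory neurons (at least 3 of 8 each), red blood cells (at least 3 of 4), and Cajal-Retzius, endothelial, mural and microglial cells (at least 4 each). Doublets were marked with Scrublet (scanpy 1.11.5; 626 cells, 5.66%) and kept. Levels are UMIs summed over a gate, per 1000000 UMIs without mitochondrial genes (3.90% of the library), with exact Poisson intervals. Ratios carry exact conditional binomial intervals, and shares exact binomial (Clopper-Pearson) ones; the interval of a difference of shares is Newcombe's. Where a gate held 0 UMIs or 0 positive cells, the limit given is the floor of 3 counts, not an interval. Thinning drew 2000 UMIs without replacement (seed 1), leaving out 23 radial glia, 13 oligodendrocyte precursors and 377 excitatory neurons of lower depth.

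Calls needed a 2-fold ratio and at least 100 UMIs in the library. For calls, and for shares and medians over all genes, a count below 3 in a gate was raised to 3. Upper cells held at least 2 upper and at most 1 deep gene, and deep cells at least 3 deep and at most 1 upper. Genes named beside the 9 were the 3 with the most similar pattern, the 3 largest ratios of each list, all ventricular radial glia genes, and others chosen after their values were seen (the gp130 ligands and the further genes in the splits of radial glia among them). The code was tested on simulated data with Python 3.11.15, numpy 2.4.6, scipy 1.17.1 and pandas 2.3.3. The alternatives were 1 marker more or fewer, cells or doublets left out, other totals, thinning depths and draws.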

Additional observations from a re-analysis of the deposited data

How the results depend on the processing

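None of the results tried under the alternatives changed direction past its counting interval. The number of genes at least 2-fold higher in radial glia than in oligodendrocyte precursors was 7, and 5 with 1 marker fewer in every gate and 6 with the mean of single-cell CPM. The ratio of Ptprz1 in oligodendrocyte precursors to radial glia was 0.494, and it was 0.568 with 1 marker fewer in every gate, 0.541 with the mean of single-cell CPM, 0.422 without dividing radial glia and 0.442 when 5 markers other than Fabp7 and Slc1a3 were needed; the last 2 were chosen after seeing the data. The share of radial glia with Hopx was 12.03% when cells were thinned to 1000 UMIs, 29.3% at 4000 and 37.2% without thinning, and the median number of genes per cell was 2, 4 and 5, as fewer or more UMIs were kept. The Tnc difference between radial glia with and without Hopx was 3.38 points in the draw of 1000 UMIs, where the expected value over all draws was 16.7. At 2000 UMIs other draws, added later, gave 23.0 and 20.7 points. Of the values of the main results under an alternative, 63 stayed within the counting interval or count limit and 11 did not. Of the values of the other results, 280 stayed and 49 did not. The ratio of Hopx in radial glia to excitatory neurons ranged from 81.5 to 108, and that of Tnc from 265 to 503. With genes of at least 10 UMIs, 37.9% of all genes were called 2-fold higher in radial glia than in excitatory neurons. The floor of 3 counts was 0.836 CPM in radial glia and 0.0446 CPM in excitatory neurons. A gene with 0 UMIs in radial glia and few in neurons could thus be called higher, so this share is no measure of enrichment. Thinned detection in radial glia was lowest for Moxd1, Fam107a, Lifr and Il6st, so depth limits these genes there. The endothelial, mural and microglial gates hold 14 to 20 cells. No paired analysis was possible because there is 1 library.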
